A study of Solanum commersonii and Solanum tuberosum with 8 samples.

Results

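A set of 48 array clones, of 11366 measured, had at least 2-fold lower transcript ratios in potato plants expressing the Arabidopsis transcription factor CBF3 in the warm, in both of the potato species tested, and were not 2-fold lower in either species after 7 d of cold. The clones were selected on the deposited ratios, read as log2: at or below -1 in both 35S::AtCBF3 columns and above -1 in both 7 d cold columns. No log base is given, so every fold value below rests on that reading. Of the 182 clones that were 2-fold lower with 35S::AtCBF3 in both species (1.6% of all clones), 105 were also 2-fold lower after 7 d in both species and 29 in a single species; the 48 clones are the remainder. The values in these 4 columns are therefore a description of how the set was chosen. The 2 h and 24 h cold columns were not used in the choice.

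The species were Solanum commersonii (Sc), a wild potato that tolerates freezing, and Solanum tuberosum (St), the cultivated potato. Leaf RNA was hybridised to 2-colour arrays. Each of the 8 columns holds 1 ratio per clone, combined by the authors from 3 slides, or from 2 slides for St 35S::AtCBF3. Cold plants were wild type, grown for 3 weeks at 25°C and then kept at 2°C for 2 h, 24 h or 7 d at a light intensity of 50, against 350 for warm plants. Days of 16 h light and 8 h dark are listed for all samples. How the time of day bears on 2 h against 24 h values was not tested. Wild type harvested after 2 h in the warm was the control at 2 h; that harvested after 24 h was the control at both 24 h and 7 d. The 24 h and 7 d columns of a species thus share a control, and the 7 d plants were older than theirs. The 35S::AtCBF3 plants carried CBF3 under a promoter that is active in most tissues; they stayed at 25°C and were set against wild type of the same species. Whether this wild-type RNA was that of the 24 h warm controls is not stated, so columns of a species may share a control here too. They came from 3 independent Sc lines and 2 St lines, and the labels do not say which line is on which slide. The genotype field of the St transgenic sample names Sc, while its title and organism name St, which was followed here.

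Positive ratios were taken to mean more transcript in cold-treated or transgenic plants. That reading is the likely one, from the order of the channels in the labels, but is not settled; were it reversed, every "higher" below would be "lower", and the opposition between columns would be the same. With 1 combined value per clone and column there is no spread between replicates, and no difference below was tested. Precision is limited by the few slides behind each value. The central spread of a whole column, from the median absolute deviation, lay between 0.22 and 0.48 on the log2 scale. The files do not pair the clones with genes, so neither the level of the transgene nor leaf marker genes could be checked. In leaf RNA, fewer cells of a type and less RNA per cell cannot be told apart.

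CBF proteins, also called DREB1, are AP2/ERF transcription factors that plants make within hours of cooling. They bind the CRT/DRE element in promoters of cold-responsive genes and are known chiefly as activators, so that a lower transcript in plants overexpressing a CBF is commonly regarded as an indirect effect. In Arabidopsis, constitutive CBF expression raises freezing tolerance in the warm and also slows growth, in part through lower gibberellin levels. S. commersonii gains freezing tolerance when kept in the cold, whereas S. tuberosum gains little.

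The main feature of the 48 clones outside the columns that chose them was a higher ratio at 24 h of cold in part of the set, opposite to their ratio with 35S::AtCBF3. In Sc 11 of the 48 clones (22.9%) were at least 2-fold higher at 24 h, where 2.65% of all clones were. In St 16 (33.3%) were, where 11.9% of all clones were. All 11 clones of Sc were among the 16 of St, so that 22.9% were 2-fold higher in both species, a call made for 2.11% of all clones. At least 2-fold lower at 24 h was 1 clone in Sc (background 1.24%) and 1 in St (background 1.43%). It was the same clone, at -1.80 in Sc and -1.17 in St, and 0.519% of all clones were lower in both.

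**Figure D1:**
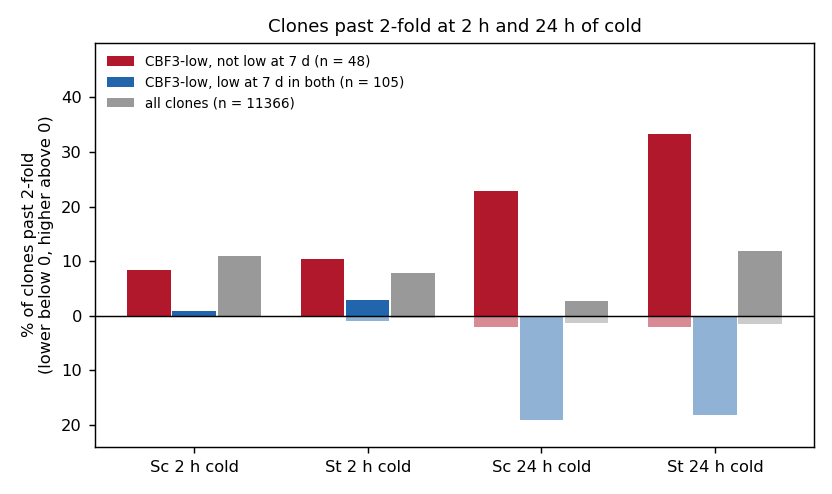
Bars give the percentage of clones at least 2-fold higher (above 0) or at least 2-fold lower (below 0, paler) at 2 h and 24 h of cold, for the 48 clones (red), the 105 clones low with 35S::AtCBF3 and after 7 d in both species (blue) and all 11366 clones (grey). At 24 h the red bars reach 22.9% in S. commersonii and 33.3% in S. tuberosum above 0, and at 2 h they reach 8.33% and 10.4%.

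The set was not uniform at 24 h. Its lower quartile, median and upper quartile were -0.23, 0.17 and 0.80 in Sc, and -0.11, 0.27 and 1.49 in St. The medians of all clones were 0.0033 and 0.0066. Above 0 in both species were 23 of the 48 clones, or 47.9% against 37.4% of all clones. The high upper quartiles thus came from a group of clones with large ratios, while the median clone stayed close to the control. The 24 h columns of both species ordered the 48 clones alike, with a Pearson correlation of 0.73 and a Spearman correlation of 0.73 across clones, near the 0.70 across all 11366 clones. Clones of a shared gene would be counted more than once here.

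At 2 h the shares of higher clones, in the columns as deposited, were near those of the whole array. At least 2-fold higher were 4 clones in Sc (8.33%, background 10.9%) and 5 in St (10.4%, background 7.87%). No clone was 2-fold lower in Sc (background 0.15%) or in St (background 0.334%). The medians were 0.11 in Sc and 0.10 in St. The share higher in St depended on the settings: it was 38.7% with all columns scaled to one spread (background 11.3%), and 25% when the set was limited to clones above -0.5, or at or above 0, at 7 d. In total 7 clones (14.6%) were 2-fold higher at 2 h in at least 1 species, where 11.6% of all clones were. All 7 were also among the 16 clones higher at 24 h in St. The other 9 of the 16 (56.2%) were not 2-fold higher at 2 h in either species. Over the whole array, 293 of the 1354 clones higher at 24 h in St (21.6%) were without a 2 h call. In Sc 6 of the 11 clones higher at 24 h were without one (54.5%), beside 158 of 301 over the array (52.5%).

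The heat map of all 48 clones divides them by the 24 h calls: 11 clones higher in both species, 5 higher in St alone and 32 in neither.

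**Figure D2:**
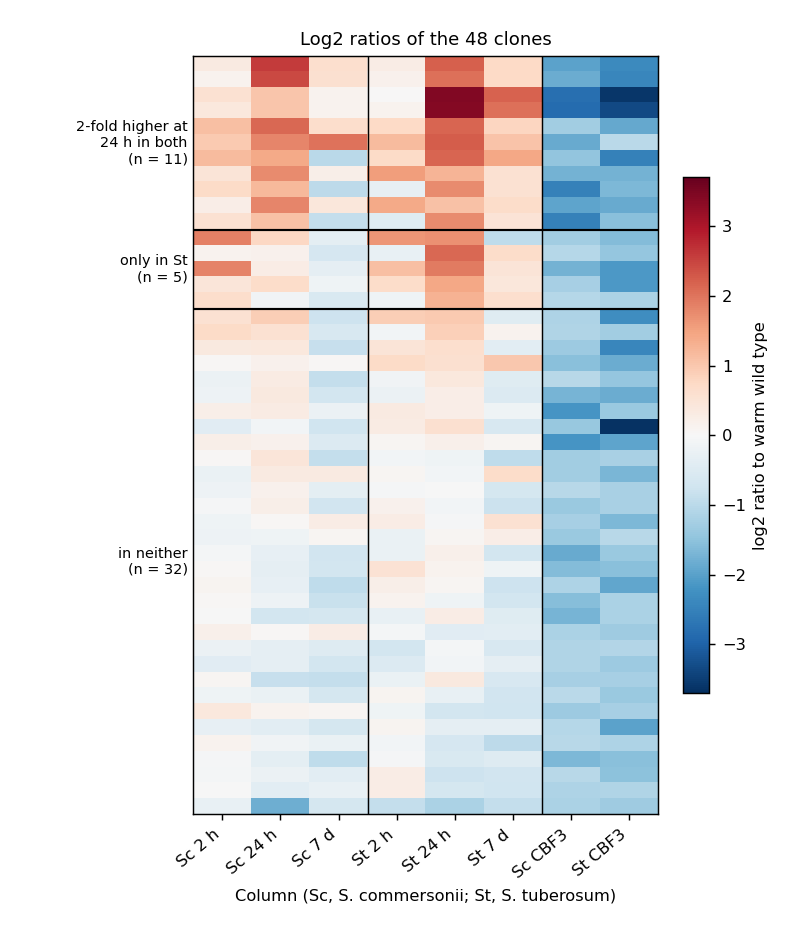
Each row is a clone and each column a log2 ratio to warm wild type (red, higher; blue, lower), with rows grouped by whether the clone was at least 2-fold higher at 24 h of cold in both species (n = 11), in S. tuberosum alone (n = 5) or in neither (n = 32) and sorted by the sum of the 24 h values. The last 2 columns, which chose the clones, are blue throughout; the top 11 rows are red at 24 h in both species.

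The 11 clones that were higher at 24 h in both species lay between 1.02 and 2.58 in Sc (median 1.74) and between 1.08 and 3.43 in St (median 2.14). At 2 h their medians were 0.56 and 0.26. All 11 were above 0 in Sc (background 52.1%) and 9 in St (background 49.5%). At 7 d they ranged from -0.98 to 2.00 in Sc (median 0.23), with 8 above 0 (background 49.5%). In St they ranged from 0.51 to 2.18 (median 0.75), with all 11 above 0 (background 49.1%). Their 7 d values share a control with the 24 h values by which they were grouped. With 35S::AtCBF3 their medians were -1.94 in Sc and -1.88 in St. The opposite signs at 24 h and with 35S::AtCBF3 follow from how these 11 clones were picked; only their number and sizes are measurements.

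The 5 clones that were 2-fold higher at 24 h in St alone ranged from 1.29 to 2.12 there and from -0.13 to 0.77 in Sc. In Sc they were below 0 at 7 d, from -0.63 to -0.17, and in St 4 of the 5 were above 0 at that time. Their medians with 35S::AtCBF3 were -1.24 in Sc and -1.61 in St. The 32 clones higher in neither species had 24 h medians of -0.11 in Sc and -0.04 in St, and 2 h medians of -0.02 and 0.03. At 7 d these 32 clones had medians of -0.66 and -0.49, with 26 of them below 0 in each species. Of all 11366 clones, 5742 in Sc and 5785 in St were below 0 at that time. Their medians with 35S::AtCBF3 were -1.26 in Sc and -1.37 in St, nearer to 0 than those of the 11 clones.

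The lowest ratios with 35S::AtCBF3, by the mean of both species, were those of the clones STMJC68 and STMCX08. STMJC68 was at -2.79 in Sc and -3.59 in St with 35S::AtCBF3, or 6.94-fold and 12.1-fold lower. In the cold it was at 0.56, 1.04 and 0.14 at 2 h, 24 h and 7 d in Sc. In St the same times gave 0.00040, 3.43 and 2.18, so that it was 10.8-fold higher at 24 h and 4.54-fold higher at 7 d. The clone was thus level with the control in St at 2 h, and both its lowest and its highest ratios were found in St.

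STMCX08 had nearly the same values throughout. It was at -2.86 in Sc and -3.33 in St with 35S::AtCBF3, at 0.40, 1.02 and 0.13 in the Sc cold columns, and at 0.13, 3.40 and 2.03 in the St cold columns. At 24 h these clones held the highest St ratios of the 48, while in Sc they held ranks 10 and 11. The St ratio exceeded that of Sc by 2.40 for STMJC68 and by 2.38 for STMCX08 on the log2 scale.

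The highest means over the 2 h and 24 h columns were those of STMCG49 and STMCX14. STMCG49 was at 0.95, 1.81 and 2.00 at 2 h, 24 h and 7 d in Sc, and at 1.18, 2.23 and 1.05 in St. With 35S::AtCBF3 it was at -1.86 in Sc and at -1.01 in St, the latter the value closest to the limit in that column. It was the only one of the 48 clones that was at least 2-fold higher at 7 d in Sc, a call made for 3.1% of all clones.

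STMCX14 was at 1.11, 2.11 and 0.65 in the Sc cold columns and at 0.72, 2.16 and 0.80 in those of St. Its 24 h values in the species differed by 0.047. With 35S::AtCBF3 it was at -1.28 in Sc and at -1.88 in St. Both clones were high at 24 h to a similar degree in either species, unlike STMJC68 and STMCX08.

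**Figure D3:**
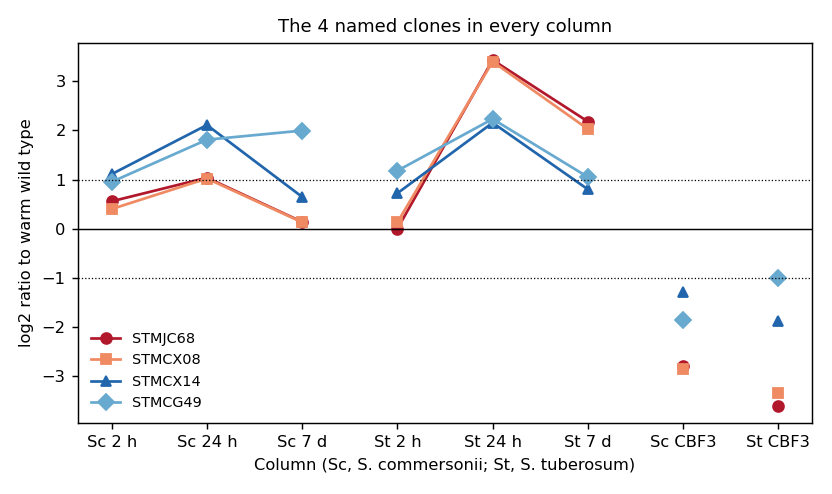
Log2 ratios to warm wild type of the 4 named clones in the 8 columns (Sc, S. commersonii; St, S. tuberosum), with dotted lines at 2-fold. All 4 lie above 1 at 24 h of cold in both species and at or below -1 in both 35S::AtCBF3 columns; STMJC68 and STMCX08 reach 3.43 and 3.40 in S. tuberosum at 24 h.

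Several of the 48 clones had almost the same profile, as STMJC68 and STMCX08 did. Their values differed by at most 0.26 in any of the 8 columns. In all, 7 pairs of clones differed by at most 0.3 in every column. Of these, 4 pairs made up 8 of the 11 clones that were higher at 24 h in both species. Each of these 8 clones had its partner as the only clone of the whole array within 0.3, while the other 3 of the 11 had no clone closer than 0.79. Whether partners carry the same gene was not tested, as the clones are not named. With such pairs averaged, 7 of 41 profiles (17.1%) were higher at 24 h in both species and 12 (29.3%) were higher in St, beside 22.9% and 33.3% for single clones.

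The difference between the species was then set out for each pair of columns. At 24 h the St ratio was above that of Sc for 30 of the 48 clones (62.5%, background 55.9%), with a median difference of 0.15, against 0.041 over all clones. It was at least 2-fold above for 6 clones (12.5%, background 9.14%). The Sc ratio was 2-fold above that of St for none, near the background of 0.563%. At 2 h the median difference was -0.03, against -0.04 over all clones. At 7 d, in columns bounded from below by the choice of the set, St was above Sc for 35 clones (72.9%, background 50%). It was at least 2-fold above for 7 (14.6%, background 1.28%), among them the like pair STMJC68 and STMCX08. The same call was made for 6 of the 105 clones low at 7 d in both species. It was made for 3 of the 29 low in a single species, and so was not particular to the 48 clones. The 7 d medians of the 48 clones were -0.54 in Sc and -0.33 in St. At least 2-fold higher at 7 d in St were 5 of the 48 clones (10.4%, background 4.04%).

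**Figure D4:**
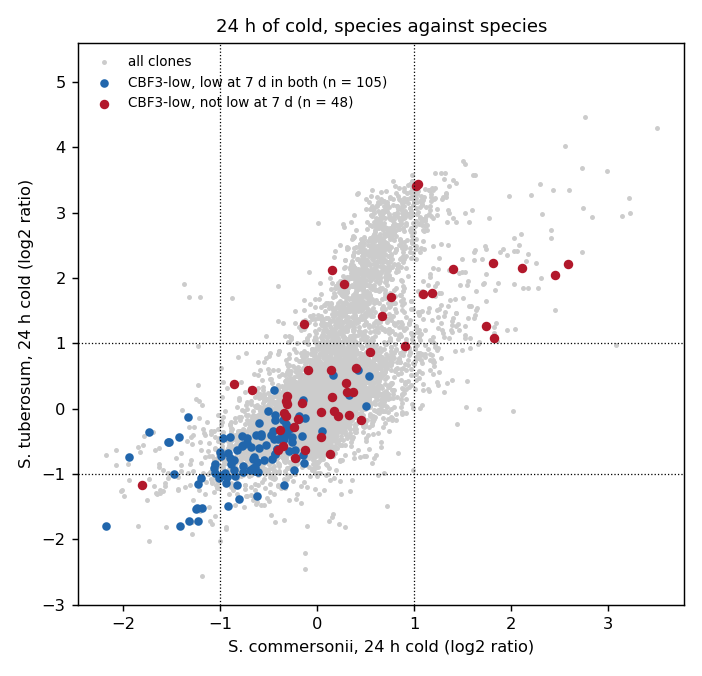
Log2 ratios at 24 h of cold in S. commersonii (horizontal) and S. tuberosum (vertical) for all clones (grey), the 105 clones low with 35S::AtCBF3 and after 7 d in both species (blue) and the 48 clones (red), with dotted lines at 2-fold. In the upper right corner lie 11 red and no blue points.

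With 35S::AtCBF3 the 48 clones ranged from -2.86 to -1.01 in Sc (median -1.34) and from -3.66 to -1.01 in St (median -1.54). All 48 are at or below -1 in both columns by choice, against 3.11% of all clones in Sc and 7.28% in St. St was above Sc for 19 of the 48 (39.6%, background 46.2%) and the lower for 29. It was at least 2-fold lower than Sc for 4 (8.33%, background 6.77%). The 105 clones that were also low at 7 d in both species had a similar median in Sc, -1.31, and a lower one in St, -2.11. The quartiles in St were -1.93 and -1.22 for the 48 clones, and -2.54 and -1.56 for the 105.

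The sizes of the 35S::AtCBF3 values were also set against the 24 h values of the other species, columns that share no control. As a description of the 48 clones, Sc 35S::AtCBF3 and St at 24 h correlated at -0.59 (Spearman -0.49), and at -0.41 (Spearman -0.43) over the 46 clones without STMJC68 and STMCX08. St 35S::AtCBF3 and Sc at 24 h correlated at -0.39 (Spearman -0.47), and at -0.37 (Spearman -0.44) without them. Over all 11366 clones the same pairs of columns had Pearson correlations of 0.20 and 0.19, positive where those of the chosen clones were negative. The choice of the 48 clones cut both the 35S::AtCBF3 and the 7 d values at -1, and clones with like profiles are counted separately. The negative values therefore hold for the chosen clones only. How far the cut shaped them was not tested.

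The other clones that were low with 35S::AtCBF3 in both species looked different at 24 h. None of the 105 clones that were low at 7 d in both species was 2-fold higher at 24 h in either species. The background was 2.65% in Sc and 11.9% in St. At least 2-fold lower were 20 of the 105 in Sc (19%, background 1.24%) and 19 in St (18.1%, background 1.43%). Their 24 h medians were -0.62 and -0.63. The 7 d values that divide these sets share a warm control with the 24 h column of the same species, so a deviation of that control moves both. At 2 h, which has its own control, the medians of the 105 clones were 0.04 in Sc and 0.09 in St. At least 2-fold higher at 2 h were 1 of the 105 in Sc (0.952%, background 10.9%) and 3 in St (2.86%, background 7.87%). These shares were below the 8.33% and 10.4% of the 48 clones, a difference that was not tested. Of the 29 clones low at 7 d in a single species, none was 2-fold higher at 24 h in Sc (background 2.65%). In St 3 of the 29 were (10.3%, background 11.9%). These shares of the 29 clones were near the background.

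Clones that were low with 35S::AtCBF3 in a single species, and likewise above -1 at 7 d in both, were nearer to the background at 24 h. Of 130 such clones in Sc, 5 (3.85%) were 2-fold higher at 24 h in both species, and of 343 in St, 13 (3.79%) were. Among all 10460 clones above -1 at 7 d in both species, which meet the same 7 d condition as the 48, this share was 2.29%. The difference between these shares and the 22.9% of the 48 clones was not tested.

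Over the 4 columns that the choice did not use, at 2 h and 24 h, 31 of the 48 clones (64.6%) stayed under 2-fold throughout, against 83% of all clones. Many lay close to the limits that chose them. Within 0.1 of at least 1 limit were 17 of the 48, and 26 clones outside the set missed a single limit by at most 0.1. The members closest to the limit were at -1.01 in Sc 35S::AtCBF3 and at -0.98 and -0.96 in the 7 d columns of Sc and St. The closest clones outside were at -0.96 in Sc 35S::AtCBF3, at -0.99 in St 35S::AtCBF3, and at -1.05 and -1.01 in the 7 d columns.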

How the data were processed

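The authors deposited 1 log2 ratio for each of 11366 clones in each of 8 samples, without gaps. Per the submitters' processing notes they worked with limma. Per the labels, slides carried Cy3 and Cy5, and both dyes are listed for each channel; 3 slides cannot balance the dyes. How background, normalization and spot filters were handled, and how slides were merged, is not given in the sources used here. Neither is a log base; log2, the scale of limma, was assumed. Column medians lay between -0.0075 and 0.011. Signals per slide were not used here, and dim clones are thus not separated from bright ones. Each sample is its own group, and no p-value was computed. Calls were made at 2-fold, in either direction. The members and lists were chosen with earlier results of these data known. The clones named are the 2 lowest by the mean of the 35S::AtCBF3 columns and the 2 highest by the mean of the 2 h and 24 h columns. Gene lists were not run, since no clone was matched to a gene. Counting used Python 3.11.15 and pandas 2.3.3 and was tested on simulated data. Alternatives were other thresholds, columns centred or scaled to one spread, other limits at 7 d, clone-name blocks averaged and, chosen after seeing the data, like profiles averaged.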

Additional observations from a re-analysis of the deposited data

How the results depend on the processing

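The size of the set depended on its limits. It held 119 clones at 1.5-fold, 19 at 3-fold and 31 with all columns scaled to one spread. With a limit of -0.5 at 7 d it held 16, and with a limit of 0 it held 12. The 1.5-fold and 3-fold settings moved the 7 d limit together with the 35S::AtCBF3 limit. At 3-fold, clones between 2-fold and 3-fold lower at 7 d could thus enter, so that set is not a stricter part of the main set. It held 1 clone that was 2-fold lower at 2 h in S. commersonii, and the main set held none. The share that was 2-fold higher at 24 h in both species stayed above that of all clones under every alternative for which the latter was computed. It was 11.8% for the set at 1.5-fold, 50% and 66.7% with the limits of -0.5 and 0 at 7 d, and 8.33% when a call in the cold needed 3-fold, where 0.493% of all clones passed. For 24 h in S. commersonii, with or without a call in S. tuberosum, scaling gave 38.7% (all clones 4.24%), and the 7 d limits gave 50% and 66.7%. For 24 h in S. tuberosum, with or without a call in S. commersonii, the set at 3-fold gave 52.6% and the 7 d limits 62.5% and 66.7%. These limits act on columns that share a control with the 24 h columns. At 2 h in S. tuberosum the share turned from near the background to 38.7% with scaling (all clones 11.3%) and to 25% with either 7 d limit. For calls at 3-fold it fell to 2.08%, but stayed near the share of all clones, 3.25%. The clone that was lower at 24 h left the set at 1.5-fold, with scaling and with both 7 d limits, giving 0% in both species. It also left the set at 3-fold, where 1 of 19 clones, not in the main set, was lower in each species (5.26%). The clone of the main set was not 3-fold lower in S. tuberosum at 24 h (0%). The cause of these changes was not tested. In the comparisons headed by a count or share, 84 of 112 values stayed within 1.5 times the count or within the exact 95% binomial interval of the share. No paired analysis was possible because each column is a single combined value, and leaving out a slide was not possible for the same reason. The absence of signal intensities limits what can be said of dim clones.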

Other observations

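The names of the clones were not spread evenly. Clones whose names begin with STMC made up 15 of the 48 (31.2%), and 13.5% of the array. Among the 105 clones low with 35S::AtCBF3 and at 7 d in both species they made up 42.9%. What the name prefixes stand for is not given in the sources used here, and the part of these clones in the results was not tested. The 48 clones came from 38 of the 157 blocks formed by the first 5 characters of the clone names, with at most 4 in a block.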
